A study of Mus musculus with 6 samples.

Results

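Ribosome biogenesis factors are the proteins that make ribosomal RNA and assemble it with ribosomal proteins, and 40 of them were selected by name: every gene whose symbol in the platform's probe annotation was on the list. Of the 40, 38 were measured among 12393 genes in all, and Dkc1 and Utp14a were not analysed here. The cells, labelled MEFs wt, were fibroblasts taken from mouse embryos, without a named strain or embryo age. Cells starved for 6 h, of what the labels do not say, gave 3 arrays, and control cells kept in normal medium gave another 3. Total RNA was hybridised as biotin-labelled cRNA to short-oligonucleotide arrays. Arrays within a group are numbered biological replicates in the labels, which do not say whether cultures or embryos were separate, so p-values measure the spread between these arrays only, which may be technical.

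RNA polymerase I copies the ribosomal RNA genes in the nucleolus into a long precursor. Small nucleolar ribonucleoproteins (snoRNPs) then guide chemical changes and cuts in that precursor, while separate sets of assembly factors build the small and the large ribosomal subunit around its pieces. Making ribosomes is among the costliest activities of a growing fibroblast and is known to follow nutrient supply through the kinase complex mTORC1 and the transcription factor MYC. The members were ordered by role into 6 polymerase I genes, 7 snoRNP genes, 7 small-subunit factors, 14 large-subunit factors and 4 nucleolar proteins that act at several steps.

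Values are log2 array signals as the authors deposited them, given per array in the order of replicates 1, 2 and 3 or as mean ± SD (n = 3 arrays per group). A difference is the starved mean less the control mean of these log2 values, with the standard error (SE) of the limma fit, and a gene "passed" when its Benjamini-Hochberg adjusted p over all 12393 genes was below 0.05. Levels of different probe sets do not measure relative abundance, so markers of cell types are given as values on each group of arrays only. The mean level of 10 fibroblast markers lay between 11.01 and 11.10 on control and between 11.22 and 11.24 on starved arrays, although Thy1, one of them, was dim (4.99 ± 0.04 in control). Of these 10 markers 6 rose and 2 fell, where 22.1% of all genes tested were called higher and 22% lower. The 9 macrophage and blood cell markers had mean levels of 4.90 to 4.95 and 4.79 to 4.96, the 6 endothelial markers 3.80 to 3.85 and 3.68 to 3.79, and the 6 epithelial markers 4.47 to 4.62 and 4.51 to 4.56. Of these 21 markers of other cell types 4 fell and 2 rose, beside the same shares of all genes, and their part in the results was not tested. In RNA from whole cultures, fewer cells of a kind and less RNA per cell cannot be told apart.

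Starvation went with lower transcript levels across most of the ribosome assembly line. A fall passed the test in 27 of the 38 members and a rise in 0, 11 members missed the threshold, and the median difference was −0.64. Over all genes tested 22% were called lower and 22.1% higher, with a median of −0.05. The starved arrays all lay below the control arrays for 27 members, which held for 28.4% of all genes. A fall of 1 or more on the log2 scale was reached by 10 members, from Rrs1 to Gnl3, and by 1.74% of all genes.

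On each gene's brightest probe set, the depth of the fall differed between the roles. All 7 measured snoRNP genes fell (median −0.93), as did 12 of 14 large-subunit factors (median −0.76), 5 of 7 small-subunit factors (median −0.76) and 3 of 6 polymerase I genes (median −0.39), whereas 0 of the 4 nucleolar proteins with several roles passed (median −0.06) (with arrays centred on their poly-A spike-ins all of these 38 genes passed as lower). The order of the roles depended on the choice of probe sets. Without probe sets shared between transcripts (33 members), polymerase I genes had a median of −0.60 and small-subunit factors −0.50. The snoRNP genes then had −0.88 and large-subunit factors −0.74, and 2 nucleolar proteins with several roles passed as lower (median −0.23). The differences between the roles were not tested.

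**Figure D1:**
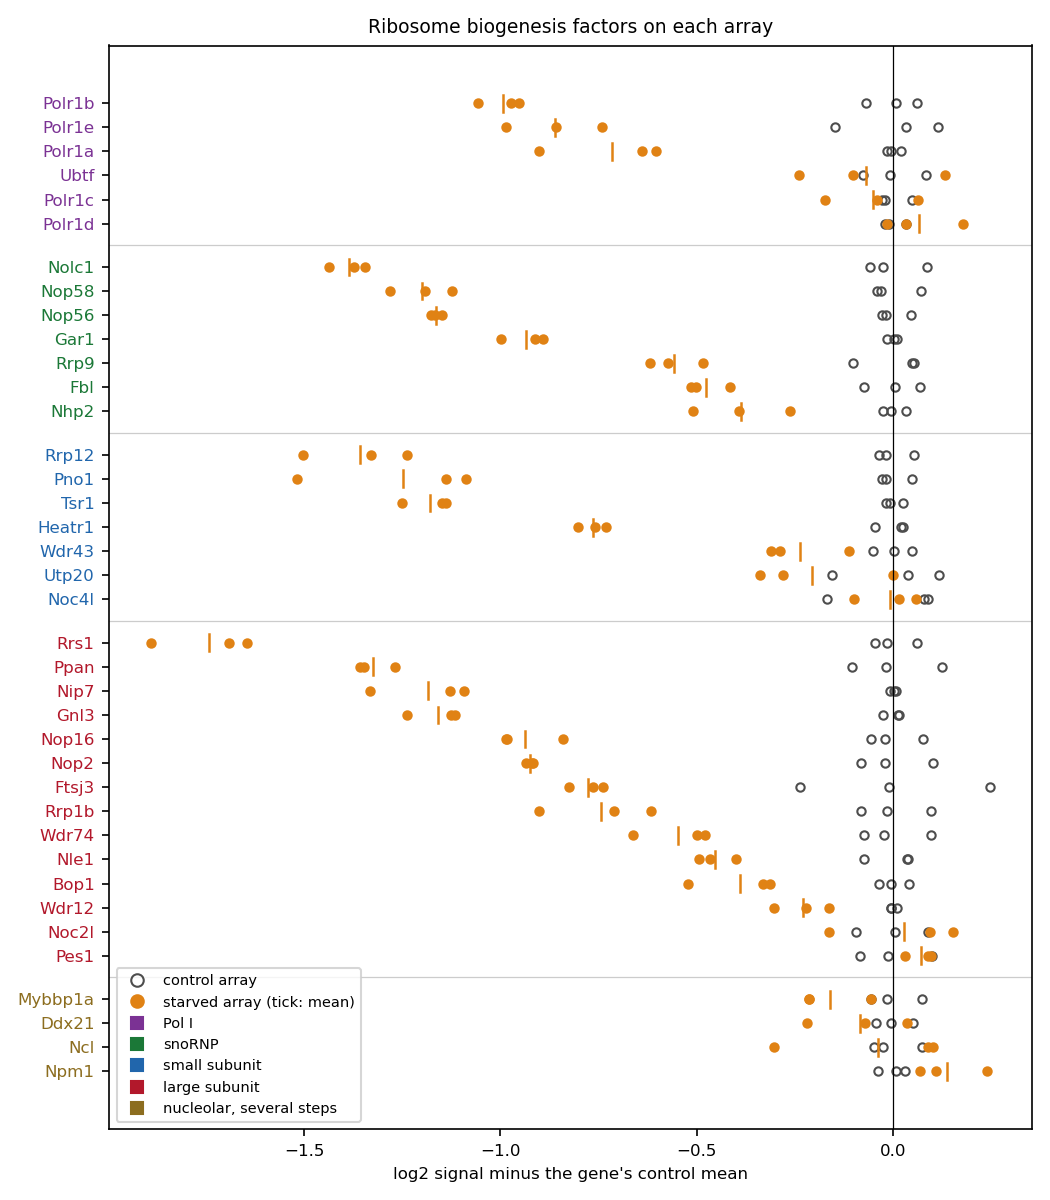
Each point is 1 array, placed at its log2 signal minus the gene's control mean (x axis, log2), with members in rows ordered by role and difference. Open points are the 3 control arrays, filled points the 3 starved arrays and ticks their mean. Starved arrays lie below all control arrays for 27 of 38 members, from Rrs1 (−1.74) to Wdr12 (−0.23). The groups overlap or stand the other way for the rest in the deposited scaling. With poly-A centring all 38 passed as lower, as did 72.1% of all genes.

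The scaling of the arrays sets what counts as unchanged. The authors' values were normalized by quantiles, which removes any change in total messenger RNA. The poly-A spike-in probe sets, bacterial transcripts that can be added to RNA before labelling, read 6.93 to 6.94 on control and 7.23 to 7.40 on starved arrays (exact two-sided permutation p = 0.1, the smallest that 3 arrays against 3 can give). With each array centred on them, all 38 members passed as lower (median −1.01), but so did 72.1% of all genes, whose median became −0.42. Centring on the hybridization spike-ins gave 32 members lower and 49.2% of all genes lower. Among all calls, genes higher in starved cells made up 50.1% as deposited, 21.5% with hybridization spike-ins and 10.2% with poly-A spike-ins. Any error of such a centring moves every gene on an array alike. The labels do not say whether or how spike-ins were added. Statements on members are therefore relative to all measured genes, as the deposited scaling sets them.

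**Figure D2:**
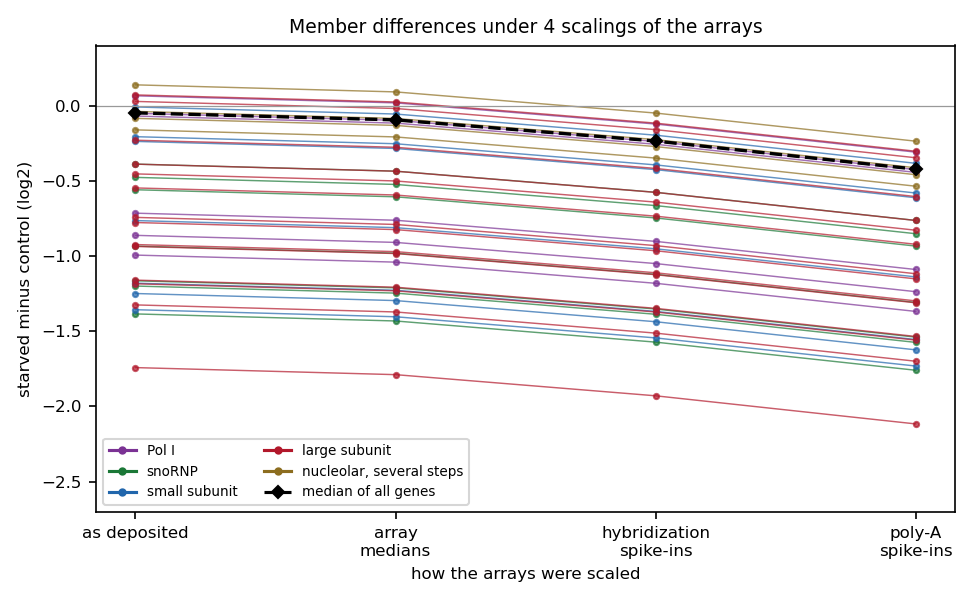
Each coloured line is 1 of the 38 members, joining its difference (y axis, starved minus control, log2) under 4 ways of scaling the arrays (x axis), and the dashed line is the median of all 12393 genes. The spacing between members stays the same by construction while all lines shift down together, and Npm1, Polr1d, Pes1 and Noc2l, the 4 members above 0 as deposited, lie below 0 with either set of spike-ins.

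Promoter sequences show where the members share letters. RefSeq promoter windows (GRCm38.p6, 250 bases before to 50 bases after the annotated start) were found for 33 of the 38 members, and none was found for Fbl, Rrp12, Bop1, Rrs1 and Npm1. Both motifs searched, CACGTG (the E-box that MYC binds) and CGCATGCG (the core of the site of the factor NRF1), read the same on both strands and do not overlap by their letters. The E-box letters stood in a window of 8 of the 33 members (24.2%), of 19 of 89 further genes of the pathway (21.3%), of 10.8% of the 9887 tested genes with a window and of 8.09% of all 27025 genes with one. They stood in 5 of 23 members that fell (21.7%) and in 3 of 10 that did not pass (30%, namely Utp20, Mybbp1a and Pes1), by the calls on each gene's brightest probe set. Mybbp1a and Pes1 each have a dimmer probe set that fell. The NRF1 letters stood in 2 of 33 members (6.06%), Pno1 and Ubtf, against 3.51% of tested genes.

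By role, the E-box letters were found in 4 of 6 small-subunit windows, 3 of 12 large-subunit genes, 1 of 3 nucleolar genes and 0 of 6 in each of the polymerase I and snoRNP groups. The windows below are those of the pair of members with the largest falls among E-box holders, of the member with the largest fall without the letters, and of the member nearest to 0, each from 5′ to 3′ on the gene's strand with motif letters in capitals. Pno1 lies at chr11:17211540-17211839 (minus strand), Tsr1 at chr11:74897830-74898129 (plus), Nolc1 at chr19:46075597-46075896 (plus) and Noc4l at chr5:110653333-110653632 (minus).
Pno1: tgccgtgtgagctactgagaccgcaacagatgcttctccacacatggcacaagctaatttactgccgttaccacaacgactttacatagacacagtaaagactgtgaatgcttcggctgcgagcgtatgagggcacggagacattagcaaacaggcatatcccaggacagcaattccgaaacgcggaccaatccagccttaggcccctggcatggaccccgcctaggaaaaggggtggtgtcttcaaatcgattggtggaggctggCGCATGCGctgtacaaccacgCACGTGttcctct
Tsr1: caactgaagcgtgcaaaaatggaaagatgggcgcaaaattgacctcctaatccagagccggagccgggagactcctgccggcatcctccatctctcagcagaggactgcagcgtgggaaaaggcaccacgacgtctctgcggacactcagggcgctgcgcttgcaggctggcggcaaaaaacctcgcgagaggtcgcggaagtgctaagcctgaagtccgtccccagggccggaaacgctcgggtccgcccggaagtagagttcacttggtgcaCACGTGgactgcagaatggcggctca
Nolc1: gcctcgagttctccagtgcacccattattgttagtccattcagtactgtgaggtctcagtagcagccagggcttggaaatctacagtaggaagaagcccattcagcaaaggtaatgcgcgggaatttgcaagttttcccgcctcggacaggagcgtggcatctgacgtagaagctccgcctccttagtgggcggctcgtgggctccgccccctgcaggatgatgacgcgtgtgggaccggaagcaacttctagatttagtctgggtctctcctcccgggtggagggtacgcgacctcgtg
Noc4l: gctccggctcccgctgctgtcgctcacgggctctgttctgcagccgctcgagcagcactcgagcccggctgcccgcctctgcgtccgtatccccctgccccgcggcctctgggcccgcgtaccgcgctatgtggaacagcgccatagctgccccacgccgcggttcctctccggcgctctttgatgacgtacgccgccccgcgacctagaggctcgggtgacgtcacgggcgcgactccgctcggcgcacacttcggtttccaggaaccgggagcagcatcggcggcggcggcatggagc

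In Pno1 the E-box starts at base 38 and the NRF1 letters at base 17, counting the annotated start as base 1, and in Tsr1 the E-box starts at base 25. Pno1 fell by 1.25 and Tsr1 by 1.18, but Nolc1 fell by 1.38 with neither motif in its window. A match describes letters only, and an absent match says nothing of a factor's binding.

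Among the polymerase I genes, Polr1a, Polr1b and Polr1e fell in the deposited scaling. Polr1c and Polr1d, both also subunits of RNA polymerase III, and Ubtf did not pass there. All 6 passed as lower with poly-A centring, as did 72.1% of all genes. Polr1b, the second-largest subunit, which helps form the catalytic centre, read 6.73, 6.78 and 6.65 on control and 5.66, 5.77 and 5.75 on starved arrays. All 3 starved arrays lay well below every control array. This was a 1.99-fold fall (difference −0.99, SE 0.07, adjusted p = 3.43e-06). Polr1e, a subunit that aids initiation and elongation, read 7.10, 6.92 and 7.18 and then 6.08, 6.33 and 6.21 (−0.86, SE 0.09, adjusted p = 4.79e-05). Its probe set is of the kind (_x_at) that can bind other transcripts, but a dimmer one also fell (−0.60). Polr1a, the largest subunit, read 8.44, 8.40 and 8.41 and then 7.77, 7.81 and 7.51 (−0.71, SE 0.09, adjusted p = 0.000112), and both of its other probe sets fell further (−0.85 and −0.95).

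The groups overlapped for the other polymerase I members. Polr1c read 9.68, 9.61 and 9.61 on control and 9.70, 9.46 and 9.59 on starved arrays (−0.05, 95% confidence interval −0.23 to 0.13, adjusted p = 0.633), and its second probe set gave −0.06. Polr1d read 10.90, 10.86 and 10.85 and then 11.04, 10.85 and 10.90 (0.07, interval −0.10 to 0.23, adjusted p = 0.506). Another Polr1d probe set passed as higher (0.26, adjusted p = 0.0167), and the gene lay at −0.31 with poly-A and −0.12 with hybridization centring. Ubtf, which binds ribosomal DNA and keeps its genes open for transcription, read 9.90, 9.81 and 9.74 and then 9.71, 9.95 and 9.57 (−0.07, interval −0.29 to 0.15, adjusted p = 0.602). The intervals of Polr1c, Polr1d and Ubtf do not reach the difference of Polr1a, the smallest of the 3 falls.

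All measured snoRNP genes fell, by 0.39 (Nhp2) to 1.38 (Nolc1). Nolc1, a nucleolar phosphoprotein that chaperones snoRNPs, read 9.53, 9.42 and 9.39 on control and 8.01, 8.10 and 8.07 on starved arrays. The gap between the groups was far wider than the spread within either, a 2.61-fold fall (−1.38, SE 0.07, adjusted p = 5.25e-07), and its dimmer probe sets gave −1.52 and −1.47. Nop58 and Nop56, paired scaffold proteins of the box C/D snoRNPs that methylate ribosomal RNA, fell almost alike. Nop58 read 10.42, 10.43 and 10.53 and then 9.27, 9.18 and 9.34 (−1.20, SE 0.07, adjusted p = 1.29e-06). Nop56 read 10.43, 10.36 and 10.35 and then 9.20, 9.23 and 9.22 (−1.16, SE 0.07, adjusted p = 7.70e-07), with −1.16 on its other probe set. Fbl, the methyltransferase of the same particle, fell less, by 0.48 (SE 0.07, adjusted p = 0.000418, and −0.60 on a dimmer probe set). Its interval of −0.64 to −0.32 lies apart from those of Nop58 (−1.36 to −1.03) and Nop56 (−1.31 to −1.02).

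The box H/ACA snoRNPs, which turn uridines into pseudouridines, had both Gar1 and Nhp2 lower. Gar1, which helps the particle release its product, fell by 0.93 (SE 0.07, adjusted p = 3.57e-06), from 9.68 ± 0.01 to 8.75 ± 0.06. Its only probe set is of a kind (_s_at) that can be shared between transcripts. Nhp2, an RNA-binding core protein of the particle, fell by 0.39 (SE 0.08, adjusted p = 0.00275), from 10.74 ± 0.03 to 10.35 ± 0.12, and its second probe set gave −0.42. Rrp9, a protein specific to the U3 snoRNP that starts the cutting of the precursor, fell by 0.56 (SE 0.08, adjusted p = 0.000213), from 8.59 ± 0.09 to 8.03 ± 0.07. No starved array of any snoRNP member reached a control array.

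The 3 largest falls among small-subunit factors were those of Rrp12, Pno1 and Tsr1. Rrp12, needed for maturation and export of the small-subunit precursor, read 6.60, 6.52 and 6.51 on control and 5.21, 5.30 and 5.04 on starved arrays (2.56-fold, −1.36, SE 0.08, adjusted p = 1.24e-06). Pno1, a partner of the enzyme that makes the final cut, read 9.68, 9.61 and 9.60 and then 8.54, 8.11 and 8.49 (−1.25, SE 0.11, adjusted p = 1.22e-05). Replicate 2 of the starved arrays was its lowest, yet all 3 stood more than 1 below control. Tsr1, a GTPase-like factor of the late precursor, read 8.38, 8.34 and 8.35 and then 7.10, 7.20 and 7.21 (−1.18, SE 0.07, adjusted p = 9.13e-07). The only probe set of Tsr1 is also a _s_at set, so no other set could be compared.

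Other members belong to the small-subunit processome, the large particle that forms on the nascent precursor. Heatr1 is one of its factors and also aids transcription by polymerase I. It fell by 0.76 (SE 0.07, adjusted p = 1.22e-05), from 7.81 ± 0.04 to 7.04 ± 0.04, with −0.49 on a dim second probe set. Wdr43, from the same subcomplex, fell by 0.24 on its brighter probe set (SE 0.08, adjusted p = 0.0306), with 8.98, 9.03 and 8.93 on control and 8.67, 8.69 and 8.87 on starved arrays. Its other probe set fell by 0.68 (adjusted p = 0.00012). The call on the brighter set was lost without any single array other than starved replicate 3 (−0.26 to −0.20, with adjusted p of 0.0504 without control replicate 3 and up to 0.102 without control replicate 2).

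Both remaining small-subunit members did not pass as deposited, though poly-A centring called both lower, as it did 72.1% of all genes. Utp20, a scaffold of the processome, read 9.09, 8.90 and 9.17 on control and 9.06, 8.78 and 8.72 on starved arrays (−0.21, interval −0.44 to 0.03, adjusted p = 0.143). Starved replicate 1 lay inside the control range while the other two lay below it, and without that array the gene passed (−0.31, adjusted p = 0.0304). Noc4l, another processome protein, read 8.29, 8.30 and 8.04 and then 8.22, 8.27 and 8.11 (−0.01, interval −0.21 to 0.19, adjusted p = 0.949), and neither of its dimmer probe sets passed (0.02 and 0.06).

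Large-subunit factors held the largest fall of all members. Rrs1, which helps to bring a small ribosomal RNA and its proteins into the large-subunit precursor, read 9.62, 9.58 and 9.69 on control and 7.99, 7.74 and 7.94 on starved arrays. The lowest control array stood more than 1.5 above the highest starved array. The level fell 3.34-fold (−1.74, SE 0.08, adjusted p = 2.90e-07). Ppan, an early large-subunit factor, read 8.41, 8.27 and 8.18 and then 7.02, 6.94 and 6.93 (−1.32, SE 0.08, adjusted p = 1.06e-06). Nip7, which takes part in processing and assembly, read 9.57, 9.56 and 9.58 and then 8.48, 8.24 and 8.44 (−1.18, SE 0.08, adjusted p = 2.42e-06), with −0.51 on a dim second probe set.

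Further large-subunit members fell by between 0.94 and 1.16 or in smaller steps. Gnl3, the nucleolar GTPase nucleostemin, fell by 1.16 (adjusted p = 1.06e-06), the assembly factor Nop16 by 0.94 (adjusted p = 7.07e-06) and the rRNA methyltransferase Nop2 by 0.92 (adjusted p = 6.20e-06). A dim second probe set of Nop16 fell less (−0.38, adjusted p = 0.0153). Ftsj3, another rRNA methyltransferase of this pathway, fell by 0.78 and Rrp1b, a nucleolar protein of the Rrp1 family, by 0.74. Wdr74, which acts with a remodelling ATPase, fell by 0.55 and Nle1, whose removal marks a late step, by 0.45. The adjusted p of these last 4 lay between 0.000101 for Rrp1b and 0.000502 for Nle1, and the groups did not overlap for any of them.

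The PeBoW complex, made of Pes1, Bop1 and Wdr12 and needed to process large-subunit RNA, gave an uneven reading. Bop1 fell by 0.39 (SE 0.08, adjusted p = 0.0025), from 8.72 ± 0.04 to 8.33 ± 0.12. Wdr12 fell by 0.23 (SE 0.07, adjusted p = 0.0214), and its second probe set fell too (−0.27). The Wdr12 call was lost without control replicate 1 (−0.23, adjusted p = 0.0679), control replicate 2 (−0.23, adjusted p = 0.06), control replicate 3 (−0.23, adjusted p = 0.0592) or starved replicate 3 (−0.19, adjusted p = 0.0546). Pes1 read 9.91, 9.80 and 9.73 on control and 9.91, 9.90 and 9.84 on starved arrays with its brighter probe set, so the groups overlapped (0.07, interval −0.09 to 0.24, adjusted p = 0.462). With its dimmer probe set Pes1 read 6.48, 6.46 and 6.69 and then 5.57, 5.61 and 5.49, a fall (−0.98, SE 0.08, adjusted p = 2.48e-05) in which no arrays overlapped.

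Pes1 therefore has no settled direction in these arrays. The mean of both probe sets fell (−0.46, adjusted p = 0.000297), and the brighter set lay at −0.30 with poly-A and −0.12 with hybridization centring. Noc2l, a nucleolar protein that also inhibits histone acetylation, was the other large-subunit member that did not pass. It read 7.99, 7.89 and 8.08 on control and 8.14, 8.08 and 7.82 on starved arrays (0.03, interval −0.19 to 0.24, adjusted p = 0.836), and its sign turned with 4 other scalings of the arrays that were planned (−0.02 with array medians, −0.003 with a further quantile step, −0.16 with hybridization and −0.35 with poly-A spike-ins).

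**Figure D3:**
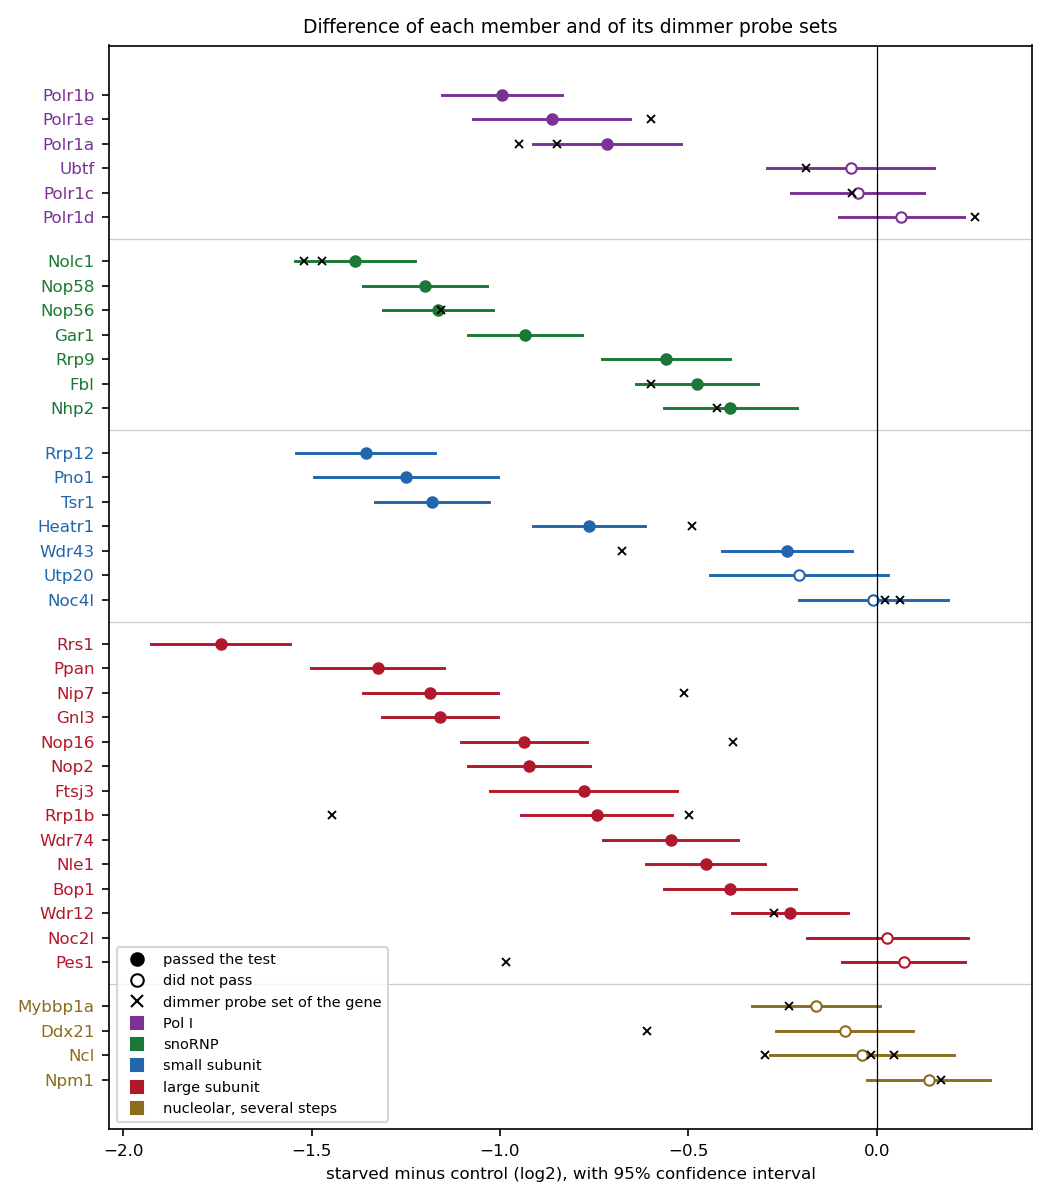
Each row is 1 member, with its difference (x axis, starved minus control, log2) and 95% confidence interval from limma, coloured by role. Filled points passed the test, open points did not, and crosses are dimmer probe sets of the same gene. The intervals of the 27 members that fell lie below 0. Crosses stand far from the point for Pes1, Ddx21, Rrp1b, Nip7, Nop16 and Wdr43. With poly-A centring all 38 members, open points included, passed as lower, as did 72.1% of all genes.

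On their brightest probe sets the abundant nucleolar proteins with several roles stayed near 0 in the deposited scaling. Poly-A centring called all 4 lower, as it did 72.1% of all genes. Ncl (nucleolin), which binds nascent ribosomal RNA, read 12.36, 12.23 and 12.26 on control and 11.98, 12.37 and 12.39 on starved arrays (−0.04, interval −0.28 to 0.21, adjusted p = 0.803). Starved replicate 1 was the low array, also on the other 3 Ncl probe sets, 1 of which read 10.01 there against 10.74 and 11.10 on the other starved arrays. Without that array the difference was 0.09 (adjusted p = 0.322). Npm1 (nucleophosmin), a chaperone of nucleolar assembly, read 12.95, 12.88 and 12.93 and then 13.03, 12.99 and 13.16 (0.14, interval −0.02 to 0.30, adjusted p = 0.153). It was the single member whose starved arrays all lay above control, it passed as higher with trend and robust settings of eBayes (adjusted p = 0.0254), and it turned negative with hybridization (−0.05) and poly-A centring (−0.24).

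Mybbp1a and Ddx21 gave readings that depended on the probe set. Mybbp1a, a repressor of polymerase I that also takes part in rRNA processing, read 10.90, 10.99 and 10.86 and then 10.87, 10.71 and 10.71 (−0.16, interval −0.33 to 0.01, adjusted p = 0.115). Its dimmer probe set fell (−0.23, adjusted p = 0.0304), and the brighter one passed without starved replicate 1 (−0.21, adjusted p = 0.0451). Ddx21, an RNA helicase that links polymerase activity to processing, read 8.17, 8.08 and 8.11 and then 7.90, 8.05 and 8.16 (−0.08, interval −0.27 to 0.10, adjusted p = 0.429). Its other probe set, with a control mean of 8.09, read 7.40, 7.45 and 7.59 on starved arrays, a fall without overlap (−0.61, SE 0.08, adjusted p = 0.000308).

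Over all probe sets of the members, 45 of 65 fell, 1 rose and 19 did not pass, where 20.5% of all 20380 probe sets with a single gene were called lower. Of the 21 members with several probe sets, 17 had the same call on each and 4 did not, namely Pes1, Ddx21, Mybbp1a and Polr1d. Every probe set fell for each of the 27 members that fell, so 30 members had at least 1 fallen probe set. The depth still varied within a gene: the probe sets of Rrp1b gave −1.45, −0.74 and −0.50, with the largest fall on its brightest set over control arrays (7.65, 7.46 and 7.40 against 6.03, 6.30 and 5.84).

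**Figure D4:**
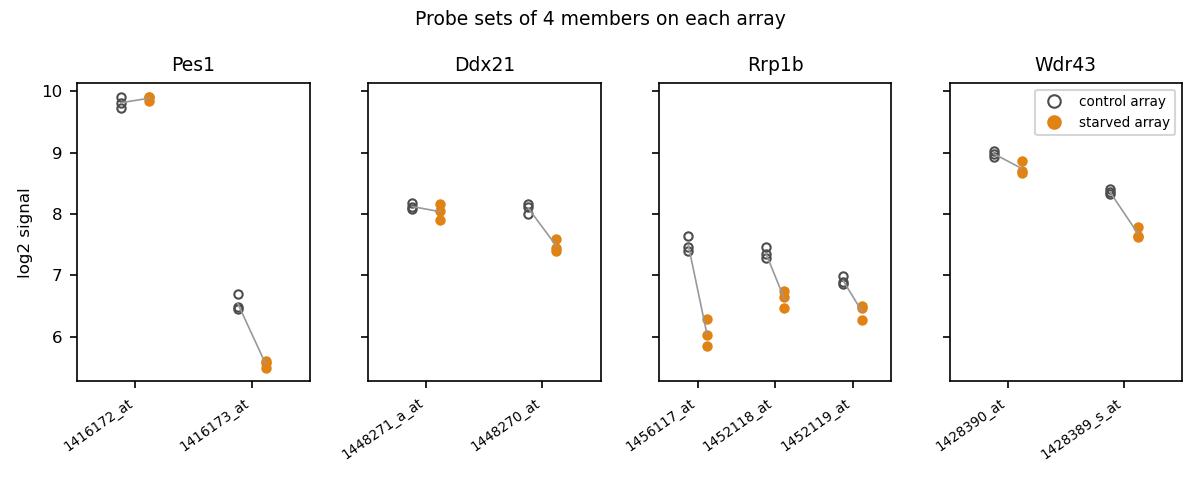
Log2 signal (y axis) on each control array (open) and starved array (filled) for every probe set (x axis, brightest in control first) of Pes1, Ddx21, Rrp1b and Wdr43, with lines joining group means. The brighter probe sets of Pes1 and Ddx21 overlap between groups as deposited, while the dimmer ones fall by 0.98 and 0.61, and all 3 Rrp1b and both Wdr43 probe sets fall. With poly-A centring the brighter sets of Pes1 and Ddx21 also passed as lower, as did 72.1% of all genes.

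From textbook knowledge, with earlier results of these data already known, 133 genes of the pathway outside the list were written down. The same roles were then examined in the 107 of them that were measured. In this wider set 63 genes fell, 15 rose and 29 missed the threshold, around a median of −0.26, where 22% of all genes tested were called lower and 22.1% higher. Genes listed as further snoRNP genes fell in 7 of 10 cases (0 rose, median −0.36). These falls include Zfp593 (−0.26), whose place on the snoRNP list is uncertain. The largest were those of Mphosph10 (−1.07) and Imp4 (−0.74), both of the U3 particle, and the ATPase Ruvbl2 (−0.55), which helps assemble snoRNPs. Further small-subunit factors fell in 21 of 32 cases (0 rose, median −0.31), led by Bysl (−1.24), Utp6 (−1.03) and Ltv1 (−0.95). Mphosph10, Imp4, Ruvbl2, Bysl, Utp6 and Ltv1 also passed as lower with both spike-in centrings. Those centrings called 72.1% (poly-A) and 49.2% (hybridization) of all genes lower.

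Further large-subunit factors held calls in both directions. Of 38 measured, 23 fell and 5 rose (median −0.27), where 22% of all genes tested were called lower and 22.1% higher. Rpf2, the partner of Rrs1, fell by 1.25 (adjusted p = 7.16e-07), and Rrp15 fell by 1.01 and Rrp8 by 0.97. Sbds, which acts with the GTPase Efl1 to release the factor Eif6 from the nearly finished large subunit, rose from 9.01 to 10.03 (1.02, SE 0.07, adjusted p = 2.67e-06), also with poly-A centring (0.64). Efl1 rose by 0.36 (adjusted p = 0.00574), but lay at −0.02 with poly-A centring and lost its call with hybridization centring (0.17).

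Polymerase I partners and trimming enzymes were split. Of 13 further polymerase I genes 6 fell and 5 rose (median 0.01), where 22% of all genes tested were called lower and 22.1% higher. The small subunit Znrd1, the platform's name for Polr1h, fell by 0.53, the shared subunit Polr2h by 0.36 and the nucleolar protein Tcof1 by 0.33. Baz2a, part of a complex that silences ribosomal DNA, rose by 0.74 (adjusted p = 8.90e-05, and 0.37 with poly-A centring), and Taf1b, a subunit of the promoter selectivity factor, by 0.55 (call lost with poly-A centring, 0.17). Of 14 exosome and trimming genes 6 fell and 5 rose (median −0.0025), beside the same shares of all genes. Mphosph6 (−0.52), Exosc1 (−0.43) and Exosc7 (−0.41) fell, while the nucleases Xrn2 (0.52) and Dis3 (0.47) rose, though both lost their call with poly-A centring (0.15 and 0.10).

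**Figure D5:**
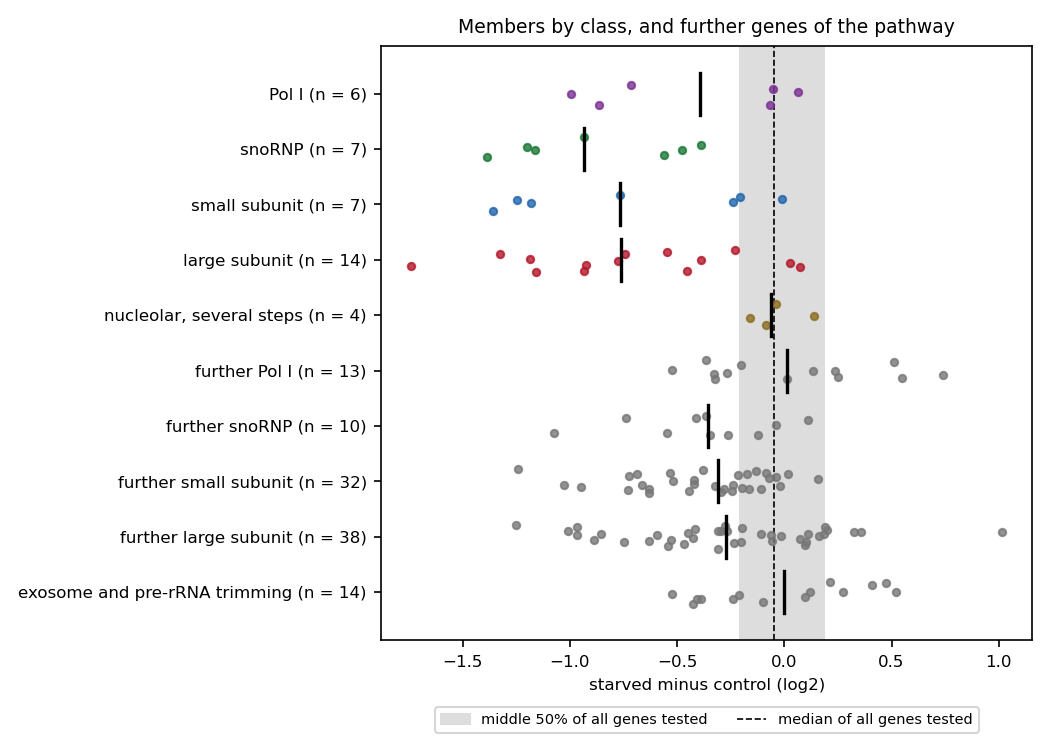
Difference of each gene (x axis, starved minus control, log2) for the members by role (coloured) and for further genes of the pathway (grey), with a black bar at each group's median and vertical scatter for legibility only. Grey shading holds the middle 50% of all 12393 genes and the dashed line their median (−0.05). Medians run from −0.93 for snoRNP members to 0.01 for further polymerase I genes, as deposited, and each lies 0.37 lower with poly-A centring.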

How the data were processed

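Per the labels, total RNA was labelled with biotin and hybridised with 1 sample per array. The authors deposited log2 values made with affy and RMA, per the submitters' processing notes, and no version is given in the sources used here. The RMA method subtracts background, equalises the arrays' distributions and summarises probes, which compresses folds of dim genes. Arrays hold no read depth, so their number limits the precision.

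Probe sets were named by the platform annotation. Of 22690, 20380 had a single gene, 691 several, 1555 none listed and 64 were controls. Each gene took its brightest probe set over 6 arrays. Groups came from sample titles. All arrays entered limma 3.58.1 in R 4.3.3 (lmFit, eBayes, two-sided, no covariate), adjusted by Benjamini-Hochberg. The fit was also run on simulated arrays with 200 changed genes and no effect shared by an array. It recovered 65.1% of changes of 0.5 and 96.9% of changes of 1. Such arrays cannot check the scaling. Python 3.11.15 and matplotlib 3.10.9 were used for tables and plots. Promoters are RefSeq's. Dimmer probe sets were tested in a fit of all 20380.

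Members and lists were chosen with earlier results of these data known. Every measured member is named, with values per array for the 3 largest differences of a role, all polymerase I genes and those not passing, and values for others chosen after they were seen. Of further lists up to 3 called falls and 2 called rises without overlap are named, and Zfp593 was added because its list is uncertain. The alternatives were other choices of probe sets, a filter on dim genes, other scalings, eBayes settings, array weights, replicate blocks, single arrays left out and other thresholds. Same-numbered arrays did not deviate together (correlations −0.005, −0.022 and 0.002 over genes), so numbers were not taken as pairs.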

Additional observations from a re-analysis of the deposited data

How the results depend on the processing

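The count of 27 fallen members stayed between 25 and 38 in every refit and between 21 and 25 with stricter thresholds (25 at an adjusted p below 0.01, 21 with a difference of at least 0.5). The replicate block gave 26 (Wdr43 lost, adjusted p = 0.0547), leaving out single arrays 25 to 28, and the mean of probe sets 30. Of the 27, 25 kept their call and direction in every refit that measured them, and the exceptions were Wdr43 and Wdr12. All genes called numbered 5463, but 9956 with poly-A centring, 10181 with the poly-A spike-ins other than Trpn (whose probe sets were dim, 2.95 to 3.11, a choice made after seeing the data) and 2273 with a difference of at least 0.5, where further pathway genes lower were 27 in place of 63; the last count is smaller by construction.

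Signs turned for members near 0, whose causes were not tested. With poly-A centring Polr1d lay at −0.309, Pes1 at −0.303, Noc2l at −0.346 and Npm1 at −0.236, and without Trpn at −0.361, −0.355, −0.398 and −0.288. With hybridization centring they lay at −0.122, −0.116, −0.159 and −0.0492. Noc2l was −0.0188 with array medians and −0.00333 with a further quantile step, and −0.0345 to 0.124 without single arrays. The mean of probe sets put Noc4l at 0.0245 and Pes1 at −0.456, and single probe sets put Noc4l at 0.021 and 0.0613, Ncl at 0.0473 and Pes1 at −0.984. Without single arrays Polr1c ranged from −0.107 to 0.0102, Ubtf from −0.17 to 0.0159, Noc4l from −0.0928 to 0.0364 and Ncl from −0.108 to 0.0948.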

Other observations

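The arrays carry control probe sets for the ribosomal RNA of the small subunit itself, which the report's comparisons do not use. The middle-region control set read 13.70, 13.78 and 13.85 on control and 13.00, 13.64 and 13.80 on starved arrays, and the set for the 5′ region read 13.81, 13.88 and 13.98 and then 13.22, 13.81 and 13.93. The set for the 3′ region read 12.69, 13.02 and 13.29 and then 12.23, 12.91 and 13.21. Starved replicate 1, also the low array for Ncl, was the lowest in all of these sets, and the other starved arrays lay within or just below the control range. The same array was also the lowest on all 3 beta-actin control sets, with 13.91, 13.78 and 13.60 on the sets for the 3′, 5′ and middle regions. The other starved arrays read 14.16 and 14.16, 14.03 and 14.10, and 13.95 and 13.98 there, and control arrays 13.97 to 14.13 over the 3 sets. On the Gapdh control sets starved replicate 1 was not the lowest, with 13.80, 13.78 and 13.93 for the 3′, 5′ and middle regions. There the other starved arrays read 13.76 and 13.76, 13.75 and 13.85, and 13.84 and 13.87, and control arrays 13.98 to 14.15. None of these control sets was tested, and whether those for ribosomal RNA follow its level in the cells was not tested.

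Among large-subunit factors, Sbds rose 2.02-fold, while Eif6, the factor it helps to release, fell 1.33-fold (limma, adjusted p = 0.000893). Lsg1 (1.68-fold, adjusted p = 2.85e-05) and Nmd3 (1.24-fold, adjusted p = 0.0129), which act in export and final maturation of the same subunit, also fell. Efl1 (1.28-fold, adjusted p = 0.00574) and Zfp622 (1.15-fold, adjusted p = 0.0482), also on the large-subunit list, rose by less than Sbds as deposited. Sbds stayed higher with poly-A centring (0.64), whereas Efl1 lost its call with either set of spike-ins (−0.02 and 0.17). The rise of Zfp622 (0.20) is smaller than the 0.37 by which poly-A centring lowers every difference. Of the 38 further large-subunit factors 23 fell and 5 rose, where 22% of all genes tested were called lower and 22.1% higher. Eif6, Lsg1, Nmd3 and Zfp622 were named after their values were seen.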
